A study of Zea mays with 12 samples.

Results

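The blue-light responses of maize leaves include a set of genes whose transcripts fell in the mutant zmcryq but stayed near their dark level in the inbred line B73. The set holds 137 of the 21472 genes tested and of the 44303 gene IDs in the deposited table. Members were chosen by their measured responses: after 1 h of blue light the log2 level in zmcryq changed by -1.5 or less, and that in B73 changed by less than 0.5 in either direction. The responses in both genotypes are therefore given as descriptions, with no test.

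Seedlings of B73, which the labels call wild type, and of the zmcryq mutant were 7 days old and had grown under long days of white light. All seedlings then spent 48 h in the dark, including the controls. They were either kept in the dark or moved to blue light for 1 h, and leaf RNA was sequenced in 3 libraries for each of the 4 groups. The labels do not list the alleles carried by zmcryq, its genetic background or the number of plants per library, so the spread behind every p-value here may be technical rather than that between plants.

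Cryptochromes, to which the name zmcryq refers, are blue-light receptors of plants. In Arabidopsis, light-activated cryptochromes inhibit a ubiquitin ligase complex that degrades light-response transcription factors in the dark, and they also bind transcription factors directly. Leaves have further blue-light receptors, the phototropins, and phytochromes also absorb some blue light, so that a plant without cryptochromes can still respond to blue light. Dark-kept seedlings use up stored sugar and accumulate transcripts that light represses.

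The gene IDs are not paired with names in the table, and 0 of them were found in the RefSeq table for the maize assembly Zm-B73-REFERENCE-NAM-5.0. No name or role can therefore be given to a member, the lists of light, clock, hormone and metabolic genes could not be counted, and neither the cryptochrome genes nor leaf marker genes were checked. In leaf RNA a lower level in fewer cells and a lower level in every cell cannot be told apart.

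Values are FPKM, a fragment count corrected for transcript length and sequencing depth. Each library was divided by a scaling factor, its median ratio to the geometric mean over libraries, and levels are log2(scaled FPKM + 1). This scaling places the median gene near 0 change by construction, and the added 1 understates changes of low genes. Zmcryq dark replicate 1 had the lowest factor, 0.507, and zmcryq blue replicate 3 the highest, 1.64. The library totals ran from 588717 to 814802 FPKM, and the number of fragments behind them is unknown. The 20 most abundant genes held between 10.1% and 39.4% of a library's total, with the highest share in zmcryq dark replicate 1 and the next highest, 34.6%, in B73 blue replicate 2, the libraries with the lowest factors.

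In the zmcryq libraries the members were high in the dark and low after blue light. Their median level in the dark was 4.36, 4.06 and 3.93 in replicates 1, 2 and 3 on the log2 scale. After blue light it was 1.9, 2.12 and 2.07. In B73 the median was 2.37, 2.29 and 2.44 in the dark and 2.24, 2.32 and 2.37 in blue light. The 3 dark zmcryq libraries thus stood above the other 9, and the blue zmcryq libraries lay slightly below the B73 libraries. The median over all tested genes lay between 3.06 and 3.15 in every library.

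**Figure D1:**
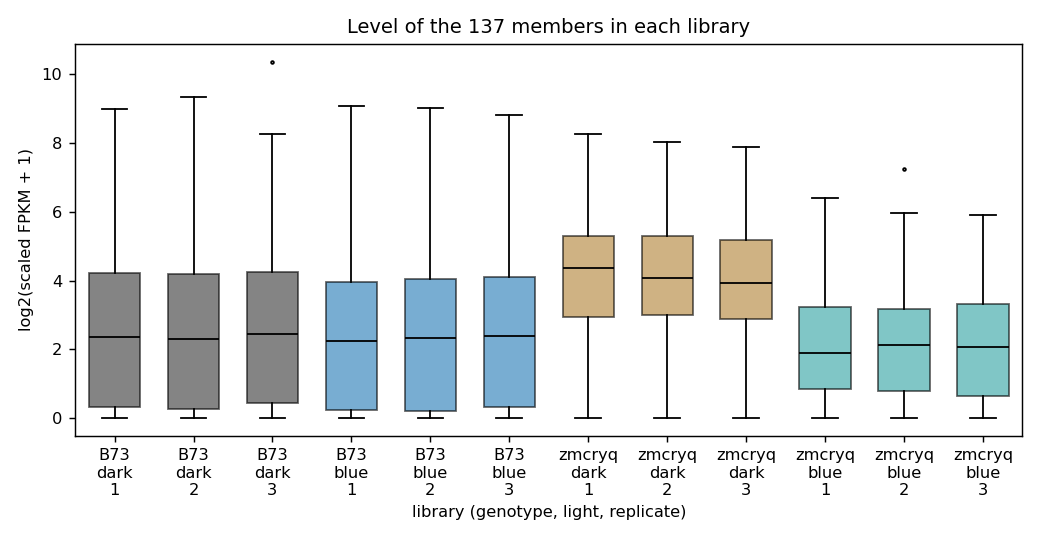
Box plot of log2(scaled FPKM + 1) of the 137 members in each of the 12 libraries (line, median; box, quartiles; whiskers, up to 1.5 box lengths; points, members beyond them). The median is 3.93 to 4.36 in the zmcryq dark libraries and 1.9 to 2.44 in the others.

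The summed level showed the same order in zmcryq. It was 4290, 4090 and 3900 scaled FPKM in the dark and 993, 1110 and 975 in blue light, without overlap. In B73 it was 2780, 2870 and 3740 in the dark and 2850, 2650 and 3070 in blue light, and those ranges overlapped. The 5 most abundant members held 36% of the summed level over all libraries, and the members' mean levels ran from 0.633 to 321 scaled FPKM with a median of 9.1. Relative to the deposited totals the members were a small fraction, between 0.149% and 0.607% of a library's FPKM.

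The median member changed by -1.81 on the log2 scale in zmcryq, with quartiles of -2.12 and -1.63 and an extreme of -4.81. In B73 the median change was -0.1, with quartiles of -0.31 and 0.06. As a ratio of group means, the median member kept 21.2% of its dark level in zmcryq after blue light, and the quartiles were 12.4% and 28.2%. For the 91 members with a B73 mean of 1 scaled FPKM or more, B73 blue light left a median of 86.4% of the dark level, with quartiles of 74.9% and 115%.

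**Figure D2:**
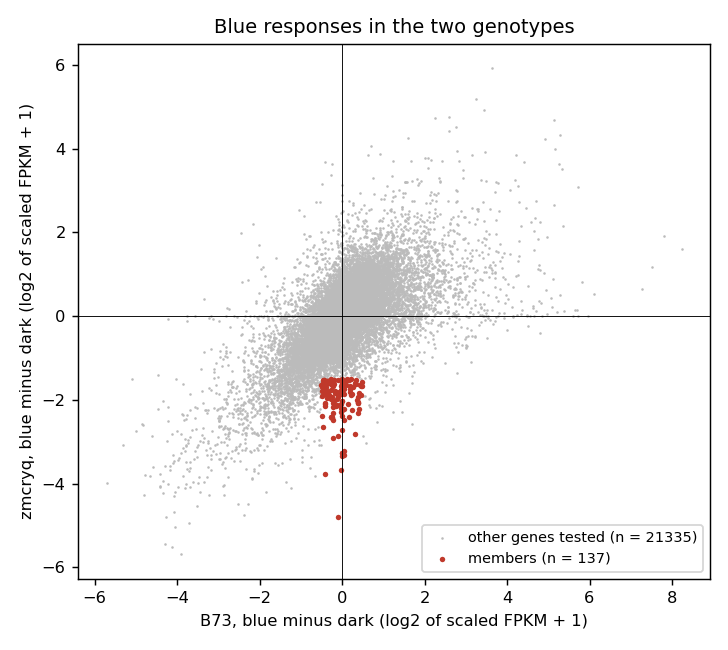
Change from dark to blue light in B73 (horizontal) and zmcryq (vertical) for every tested gene, on the scale of log2(scaled FPKM + 1), with the 137 members in red. The members form the block at -1.5 or less in zmcryq and within 0.5 of 0 in B73, below the main cloud.

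All 3 zmcryq dark libraries stood above all 3 zmcryq blue libraries for 118 members, or 86.1%. This ordering held for 33.5% of all tested genes, and since the rule used this contrast nothing is read from the comparison. For the remaining 19 members the 2 ranges touched or overlapped. In B73 the dark and blue ranges overlapped for 110 members, while 21 members had every dark library above every blue one and 6 had the reverse. The rule limited the B73 change, and these counts were not made over all tested genes, so nothing is read from them.

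A response within 0.5 in B73 is a point estimate. The limma standard error of a gene is shared by all groups, so it carries zmcryq scatter too, even for a member at 0 in B73. With this standard error, the 95% interval of the B73 change lay within 1 of 0 on both sides for 101 members. It reached -1 or lower for 33 and 1 or higher for 29. For these members a change of 1 log2 unit in B73 is within this shared error, which is not the spread of B73 alone. The interval lay below 0 for 21 members and above 0 for 7, counts that were not made over all tested genes and that the rule restricts. The estimated change was negative for 83 members, positive for 41 and exactly 0 for 13, which were listed at 0 in all 6 B73 libraries.

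The thresholds cut through a continuous range. The 3 members nearest the zmcryq threshold changed by -1.5042, -1.5064 and -1.5102, and the 3 genes just outside it by -1.4974, -1.4939 and -1.4935. At the lower B73 threshold the nearest members changed by -0.4986, -0.4938 and -0.4902 and the nearest genes outside by -0.5, -0.5084 and -0.5146. At the upper one the members nearest changed by 0.4749, 0.4728 and 0.4571, against 0.5067, 0.5157 and 0.5159 outside. Leaving out each of the 12 libraries in turn, 54 of the 137 members met the rule every time. They were 21 of the 46 members under 1 scaled FPKM in B73, 12 of the 41 from 1 to 10 and 21 of the 50 at 10 or more. The number of genes meeting the rule was 246 without zmcryq dark replicate 2 and 222 without zmcryq blue replicate 2, and between 123 and 144 without any other single library. Without both libraries of lowest factor it was 138, of which 99 were members.

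The members were a small share of all genes lowered in zmcryq. A change of -1.5 or less in zmcryq was found for 1105 genes, 5.15% of those tested. Of the 1105, 941 were also lower by 0.5 or more in B73, 137 were the members and 27 were higher by 0.5 or more in B73. Among the 12054 genes within 0.5 of 0 in B73, 137 changed by -1.5 or less in zmcryq, or 1.14%, and 129 changed by 1.5 or more, or 1.07%. With the genotypes exchanged, 84 of the 11004 genes within 0.5 of 0 in zmcryq changed by -1.5 or less in B73, or 0.763%, and 378 changed by 1.5 or more, or 3.44%.

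The members differed widely in their level in B73, which the rule does not set directly, although it is met more easily near 0. The mean B73 level over dark and blue light was under 1 scaled FPKM for 46 members, from 1 to 10 for 41, and 10 or more for 50. Members made up 2.1% of all tested genes of the lowest class, 0.422% of the middle class and 0.522% of the highest. Since a gene near 0 in B73 can hardly change there, nothing is read from the higher share of the lowest class. The median change in zmcryq was -1.83, -1.79 and -1.79 in the 3 classes, values set largely by the threshold, and the median member kept 13.6%, 21.4% and 26.5% of its dark level.

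**Figure D3:**
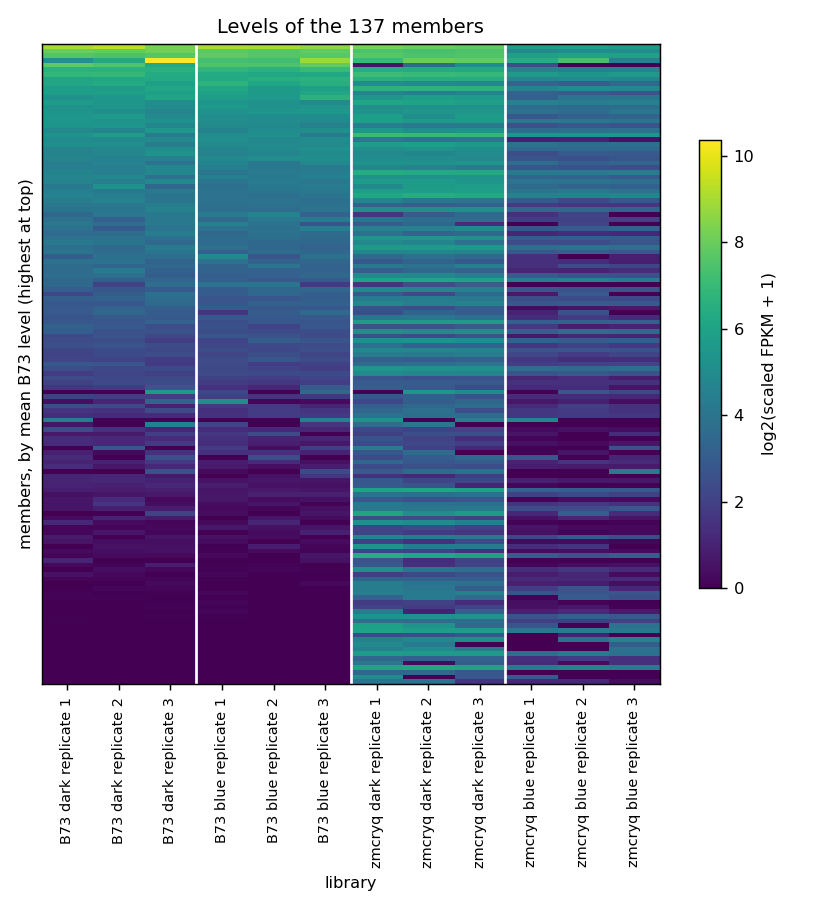
Level of each of the 137 members (rows, sorted by mean B73 level with the highest at the top) in the 12 libraries (columns), as log2(scaled FPKM + 1). In the lowest rows the B73 libraries are at or near 0 while the zmcryq dark libraries are not, and in most upper rows the zmcryq blue libraries stand below the other 9.

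Members under 1 scaled FPKM in B73 were, by their medians, transcripts highest in dark zmcryq leaves. The median member of this class stood at 0.113 scaled FPKM in dark B73, 0.0417 in blue B73, 12.3 in dark zmcryq and 1.25 in blue zmcryq. The group mean in blue zmcryq was also under 1 for 21 of the 46. All dark zmcryq libraries exceeded all blue ones for 40 of the 46. This ordering held for 33.5% of all tested genes of any level, and the rule used the contrast, so nothing is read from the count.

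Members of 10 scaled FPKM or more in B73 had another profile. The median member was at 24.2 in dark B73, 24.3 in blue B73 and 37.2 in dark zmcryq, and at 9.39 in blue zmcryq. The median was thus lowest in blue zmcryq and highest in dark zmcryq, with B73 between. All dark zmcryq libraries exceeded all blue ones for 45 of the 50. The middle class lay between, with medians of 3.89, 3.93, 9.08 and 2.03 scaled FPKM in the same order. Its dark zmcryq libraries all stood above the blue ones for 33 of the 41. The rule used this contrast, so nothing is read from these counts either.

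The rule fixes that the difference between genotypes shifts by more than 1 between dark and blue light, so each member must differ by more than 0.5 in at least 1 of the lights. Where it does so is given without a test, as differences of log2(scaled FPKM + 1); near 0 FPKM a difference under 1 on this scale can still be a large ratio of levels. In the dark 79 members were higher in zmcryq than in B73 by 1 or more, 5 were lower by 1 or more and 53 lay between. The shares over all tested genes were 8.37% and 9.09%. In blue light 25 members were higher in zmcryq by 1 or more, 48 were lower by 1 or more and 64 lay between, against 9.41% and 13% of all tested genes. Without zmcryq dark replicate 1 and B73 blue replicate 2, 127 members remained in the test, 66 of them higher in dark zmcryq and 51 lower in blue zmcryq by 1 or more.

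Combined on the same scale, 49 members were higher in dark zmcryq by 1 or more and within 1 of B73 in blue light, a profile of 3.33% of all tested genes. With a pseudocount of 0.1 the count was 37. Higher in both lights were 25 members, against 4.92% of all genes, and 38 were within 1 in the dark and lower in blue light by 1 or more, against 7.07%. There were 15 within 1 in both lights, against 71.1% of all genes. A further 5 were higher in the dark and lower in blue light, and 5 were lower in both, against 0.121% and 5.84%. Since the rule restricts how the difference shifts between lights, nothing is read from these shares.

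By B73 level, 45 of the 46 members under 1 scaled FPKM in B73 were higher in dark zmcryq by 1 or more, against 32.1% of all genes at that level. In blue zmcryq 22 of the 46 were higher by 1 or more, against 34.4%, and 0 were lower by 1 or more, against 0.778%. Of the 50 members at 10 or more, 9 were higher in dark zmcryq by 1 or more, against 4.05% of all genes at that level, and 36 were lower in blue zmcryq by 1 or more, against 17.5%.

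**Figure D4:**
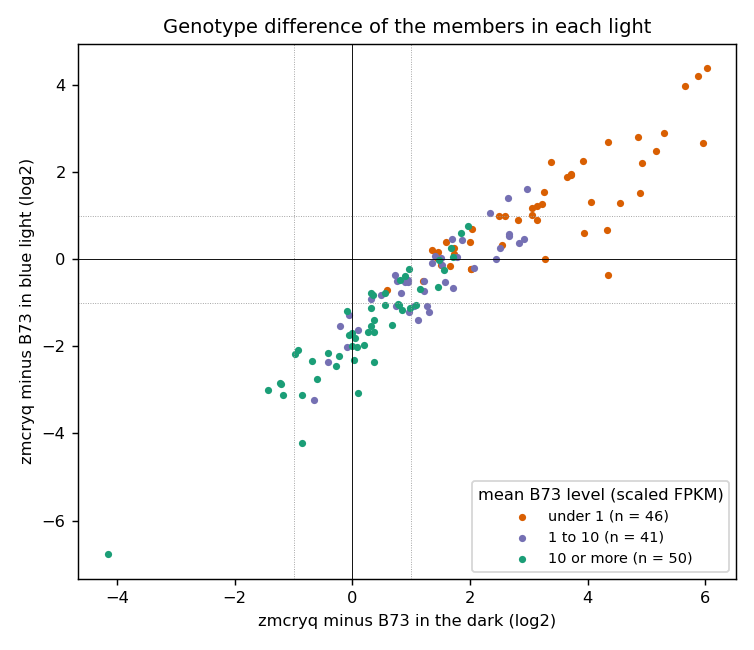
Difference between zmcryq and B73 in the dark (horizontal) and in blue light (vertical) for the 137 members, on the scale of log2(scaled FPKM + 1), coloured by mean B73 level; dotted lines mark a difference of 1. Of the 46 members under 1 scaled FPKM in B73, 45 lie at 1 or more on the horizontal axis, and of the 50 at 10 or more, 36 lie within 1 of 0 horizontally and 36 at -1 or less vertically.

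The counts by B73 level are largely set by the scale and the rule. The B73 level that forms the classes is also the level subtracted in the difference, and a gene near 0 in B73 can hardly be lower by 1 in zmcryq. A gene has to stand at 1.5 or more in dark zmcryq to fall by that amount, and the lowest dark zmcryq level among members was 1.55, whereas a gene at 0 in both B73 groups meets the B73 threshold without effort. In addition, 24 members would not have reached the expression filter, 1 FPKM or more in at least 3 libraries, without the zmcryq dark libraries. The filter therefore favoured a high level there.

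The genotype difference averaged over dark and blue light is the contrast that is orthogonal to both blue responses in this balanced design, and it was tested with limma over all tested genes. Of the members 66 were called higher in zmcryq at a limma adjusted p under 0.05 and 34 lower, and 37 were not called. The floor and the filter described above favour higher calls, and 42 of the 66 were members under 1 scaled FPKM in B73. Over all tested genes 31.7% were called higher and 31.7% lower, so calls were common throughout the leaf transcriptome. Without scaling the calls were 54 higher and 31 lower among members, and 2307 higher and 4003 lower over all genes, in place of 6807 and 6811. The median averaged difference of the members was 0.53, against 0.02 for all tested genes, and the same floor and filter favour a positive value.

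The calls can be split by B73 class, but the class level is again the level subtracted, and all tested genes show the same order of classes, so the order is no result about the members. Of the 46 members under 1 scaled FPKM in B73, 42 were called higher in zmcryq and 0 lower, where the floor described above favours that direction. Among all tested genes of that class 61.3% were called higher and 4.53% lower. Of the 41 in the middle class 16 were called higher and 5 lower, against 31.4% and 29.6% of all genes at that level. Of the 50 members at 10 or more, 8 were called higher and 29 lower, against 25.3% and 40.1% of all genes at that level, and their median averaged difference was -0.65. When genes were required to reach 1 FPKM in all 12 libraries, which 65 members do, the calls were 23 higher and 26 lower. Over the 14416 genes tested there, 4552 were called higher and 4571 lower. The median averaged difference of the 65 members was -0.12.

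Zm00001eb098130 had the lowest response of all members. Its scaled FPKM were 35.6, 31.4 and 20.6 in the 3 dark zmcryq libraries and 0.0791, 0 and 0.0791 in the blue ones. In B73 they were 1.23, 0.248 and 0.111 in the dark and 0.166, 1.13 and 0 in blue light. The gene was thus well above the B73 range only in dark zmcryq, and within it in blue zmcryq. The change on the log2 scale was -4.81 ± 0.32 (SE) in zmcryq and -0.11 ± 0.32 in B73. Averaged over light, the gene was higher in zmcryq by 1.99 ± 0.23 (limma adjusted p 1.4e-05), although in blue light alone the difference was -0.36 ± 0.32. Outside dark zmcryq it reached 1 FPKM only in B73 dark replicate 1, at 1.42, so it passed the filter through dark zmcryq. With B73 near 0, the floor and the filter favoured a positive averaged difference, and nothing is read from its call.

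Zm00001eb338480 had the second lowest response. It was listed at 65.2, 32.8 and 49.3 scaled FPKM in dark zmcryq and at 1.2, 7.56 and 1.33 in blue zmcryq. In dark B73 it was at 0, 0 and 3.33, and in blue B73 at 0.256, 0 and 0.491. Every dark zmcryq library exceeded every other library, and blue replicate 2 stood above the other blue zmcryq libraries. The change was -3.77 ± 0.65 (SE) in zmcryq and -0.4 ± 0.65 in B73, and the 95% interval of the B73 change reached below -1. The averaged difference between genotypes was 3.2 ± 0.46 (limma adjusted p 0.00017), a direction that the floor favours with B73 near 0.

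Zm00001eb297790 had the highest averaged genotype difference. It was listed at 0 in all 6 B73 libraries, at 62, 70.2 and 59.4 scaled FPKM in dark zmcryq and at 18.1, 23.6 and 18.5 in blue zmcryq. The zmcryq ranges in dark and blue light did not overlap, and blue zmcryq remained far above B73. Its change in zmcryq was -1.63 ± 0.11 (SE), near the threshold, and -0.92 without scaling. The averaged difference was 5.2 ± 0.08 (limma adjusted p 5.1e-13), a size that depends on the added 1 because the B73 libraries are at 0. For the same reason it could not be negative, and the gene passed the filter only through zmcryq libraries. The gene was also named for this difference, so nothing is read from its call.

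The 13 members listed at 0 in all B73 libraries made up 9.49% of the set, against 1.01% of all tested genes. Such a gene meets the B73 threshold without effort and passes the filter only through zmcryq libraries, so nothing is read from these shares. Their means ran from 4.87 to 63.9 scaled FPKM in dark zmcryq with a median of 15.8, and from 0 to 20.1 in blue zmcryq with a median of 2.46. Only 1 of them was also at 0 in all blue zmcryq libraries. At the other end, 5 members were listed at 0 in all 3 blue zmcryq libraries, with dark zmcryq means of 1.99 to 9.85 scaled FPKM.

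Zm00001eb286770, the second lowest in averaged genotype difference, was picked after its values were seen because its libraries were tight. It stood at 31.5, 29.3 and 28.4 scaled FPKM in dark B73 and at 32.6, 27.5 and 32.3 in blue B73. In dark zmcryq it was at 16.8, 15.2 and 16.1, and in blue zmcryq at 0.854, 0.91 and 0.414. The B73 groups overlapped fully, dark zmcryq lay below both, and blue zmcryq was lower again, without overlap at either step. The change was -3.32 ± 0.12 (SE) in zmcryq and 0.05 ± 0.12 in B73. Group means were 22.1-fold higher in dark than in blue zmcryq and 42.4-fold higher in B73 than in zmcryq under blue light. The averaged difference was -2.53 ± 0.08 (limma adjusted p 3.5e-10). Picking the gene for a low averaged difference and tight libraries favours a small SE and p, so nothing is read from their size.

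Zm00001eb436750 had the lowest averaged genotype difference but an irregular profile in zmcryq. It was at 224, 181 and 78.1 scaled FPKM in dark B73 and at 182, 175 and 233 in blue B73. In dark zmcryq the libraries read 0.512, 10.7 and 31.7, and in blue zmcryq 4.72, 0 and 0. The zmcryq ranges overlapped, so its fall of -2.22 ± 1.06 (SE) rests on scattered libraries. Leaving out zmcryq dark replicate 3 gave -1.25, and leaving out zmcryq dark replicate 1 gave -3.51. The gene's B73 change of 0.41 ± 1.06, with an SE shared with the zmcryq libraries, became 0.71, outside the rule, without B73 dark replicate 1. All 6 zmcryq libraries were below all 6 B73 libraries, and the averaged difference was -5.46 ± 0.75 (limma adjusted p 0.00013).

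**Figure D5:**
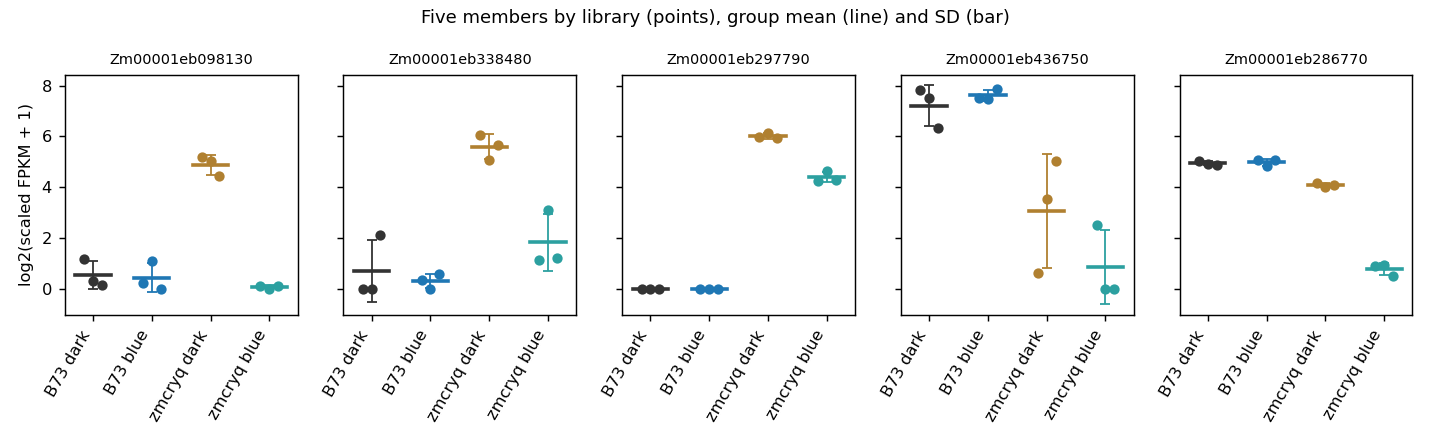
Level of the 5 members described by ID in each library (points), with group mean (line) and SD (bar), as log2(scaled FPKM + 1), n = 3 per group. Zm00001eb098130 and Zm00001eb338480 are high only in dark zmcryq, Zm00001eb297790 is at 0 in B73, and Zm00001eb286770 is near 0.73 scaled FPKM only in blue zmcryq.

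The spread between libraries was wider for the members than for the median gene. Their median SD within a group was 0.24 in dark B73, 0.17 in blue B73, 0.21 in dark zmcryq and 0.2 in blue zmcryq on the log2 scale, against 0.2, 0.15, 0.12 and 0.12 for all tested genes. An SD above 1 in at least 1 group was found for 27 members, or 19.7%, against 4.14% of all tested genes. Of the 27, 10 were under 1 scaled FPKM in B73, 11 were in the middle class and 6 were at 10 or more. The part of this spread in their selection was not tested.

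Values of the members can be set beside those of the 941 genes lower in both genotypes. The median log2 level in dark B73 was 2.25 for members and 4.96 for these genes, and in dark zmcryq 4.03 and 5.13. Dark zmcryq exceeded dark B73 by 1 or more on the log2 scale for 57.7% of members and 14.8% of the 941. A mean B73 level under 1 scaled FPKM was found for 33.6% and 2.87%. In blue zmcryq the medians were 1.82 and 2.88. A gene near 0 in B73 cannot fall there, so the rule itself separates the sets by B73 level, and the difference between them was not tested.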

How the data were processed

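Leaf RNA of 12 maize libraries was read from a single table that the authors deposited. The deposited values were taken as FPKM; their unit is not stated, but they are decimal numbers with unequal library totals, and Cufflinks, which writes FPKM, is among the programs in the submitters' processing notes. Trimmomatic 0.36, HISAT2 2.2.1.0, Bowtie2 and TopHat also appear in those notes, without their roles. The sources used here give no build, annotation, strand setting or rule for shared fragments, and near-identical or overlapping genes cannot be told apart. The 4 columns of group means were not used.

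Genes reaching 1 FPKM in 3 or more libraries were kept. Each library was divided by its median ratio to gene geometric means, over 19555 genes above 0 in all 12 libraries. Levels as log2(scaled FPKM + 1) entered a limma model (version 3.58.1, R 4.3.3) that had a mean for each group and used trended and robust moderation. The genotype difference averaged over light was the contrast tested, 2-sided, with Benjamini-Hochberg adjustment over all tested genes and calls under 0.05. The fit was tested on simulated data with differences placed only in genes above a minimum level, so the finding of differences near 0 was not covered. The members, lists and tests were chosen with earlier results of these data known, and the classes by B73 level after values were seen. Named were the 2 members with the lowest zmcryq response, the highest and the lowest called in the averaged difference, and 1 more added later. Other scalings, pseudocounts and filters, a replicate block and fits without each library were run as alternatives.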

Additional observations from a re-analysis of the deposited data

How the results depend on the processing

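The choice of members depended on the scale. Without scaling, 39 genes met the rule and 38 of them were members, the median zmcryq response of the members was -1.27 while that of all tested genes was 0.56, and their median averaged genotype difference was 0.33; 2307 of all tested genes were called higher and 4003 lower. With a pseudocount of 0.1 the median zmcryq response was -2.36. With a pseudocount of 5 it was -1.28, 44 genes met the rule, 49 members were higher in dark zmcryq and 29 lower in blue zmcryq by 1 log2 unit or more, and the median averaged difference was 0.29. Genes at 1 FPKM or more in all 12 libraries left 65 members in the test, and 53 genes met the rule. Of the 65 members 23 were called higher, against 4552 of the 14416 genes tested. In the dark 25 were higher by 1 log2 unit or more, and the median averaged difference was -0.12. Leaving out 1 library at a time, between 123 and 246 genes met the rule. Between 56 and 67 members were called higher, against 6275 to 7141 of all tested genes, and the median averaged difference lay between 0.25 and 0.55. Without both libraries of lowest factor, an alternative added after the data were seen, that median was 0.21 over the 127 members still tested. The cause was not tested, apart from the smaller number of members tested where it is given.

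Replicate numbers are shared between groups, but same-numbered libraries did not deviate together (correlations of -0.3 to 0.32, against -0.37 to 0.29 for other pairs). With the replicate block 67 members were called higher and 35 lower, against 6763 and 6762 of all tested genes. The averaged differences of the 5 named members were called under every alternative that tested them (limma adjusted p up to 0.0048). Some were named for an extreme averaged difference, and for those near 0 in B73 the floor favours the call, so nothing is read from this. None of the 5 gave a value under the filter for 1 FPKM in all 12 libraries, since each falls below it somewhere. The number of fragments per gene is unknown, which limits the reading of members near 0.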

Other observations

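Levels were examined for the genes that joined the set without zmcryq dark replicate 2 or zmcryq blue replicate 2, the leave-outs that moved its size most. Without zmcryq dark replicate 2 there were 126 such genes. Their median log2 level was 9.72, 7.49 and 8.93 in dark zmcryq replicates 1, 2 and 3 and 7.7, 8.72 and 6.53 in the blue ones, so they were abundant transcripts whose levels differed between libraries of a group by more than 2 log2 units. With all libraries their median change was -1.03 in zmcryq and -0.12 in B73. Without zmcryq blue replicate 2 there were 101 such genes, with a median of 8.78, 7.01 and 8.27 in the dark and 6.94, 7.99 and 5.84 in blue light. The choice of these genes favours a low level in dark replicate 2 for 1 set and a high level in blue replicate 2 for the other. It therefore sets part of the order of libraries, and a link to the scaling factor was not tested. In both sets of genes, within each light, the library with the lowest scaling factor had the highest median. The members' medians had the same library highest in each light, but they lay within 0.43 of each other in the dark and 0.22 in blue light.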
